A study of Mus musculus with 24 samples.

Results

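Kidney and liver of the mouse were compared for H3K27Ac, histone H3 acetylated at lysine 27, over all annotated genes of a table with 1 value for each gene and library. The comparison used 4 of the 8 libraries of the table: kidney FFPE and kidney Frozen on one side, liver FFPE and liver Frozen on the other. Brain and heart, each as FFPE and Frozen, entered the same model and helped to estimate the spread. Of the 24 samples in the labels, 8 are H3K27Ac samples of kidney or liver. FFPE tissue was fixed in 10% formalin and embedded in paraffin, and a heating step of 20 min at 95 °C released its chromatin. Frozen tissue was crosslinked in 1% formaldehyde for 30 min after a core had been taken from the flash-frozen organ. The labels give no genotype, strain, sex or age, no treatment other than the preservation, and no animal behind a column. Both kinds of chromatin were sheared with the PIXUL sonicator before ChIP. Mice that differ between the preservations can therefore not be told apart from the preservation itself.

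H3K27Ac is laid down by the acetyltransferases p300 and CBP at active promoters and enhancers, and genes that define a cell type often carry it across much of their length. Kidney and liver share an epithelial makeup with heavy transport and metabolism, and both take up and convert amino acids, sugars and drugs. The bulk of kidney tissue is tubule epithelium derived from intermediate mesoderm, while the bulk of liver is hepatocytes derived from endoderm, which secrete most plasma proteins and make bile acids and urea. In whole tissue, fewer cells of a type and less of the mark per cell cannot be told apart.

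The libraries had total counts of 5309082 in kidney FFPE, 4836830 in kidney Frozen, 4404789 in liver FFPE and 6164562 in liver Frozen. Values are log2 CPM, the log2 of counts scaled by the authors to an effective library size. That size was 0.99 times the total count in kidney FFPE, 1.17 in kidney Frozen, 1.04 in liver FFPE and 0.92 in liver Frozen. A difference is kidney minus liver, averaged over both preservations, so that 1 is a 2-fold difference. Genes of the mitochondrial genome, which is not packed in histones, held 18.4% of the counts in kidney FFPE, 4.52% in kidney Frozen, 12.7% in liver FFPE and 5.29% in liver Frozen. Markers of tubules and hepatocytes went with the organ labels, while the podocyte gene Nphs1 was lower in both kidney libraries than in both liver libraries, without passing the threshold.

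Of 26944 genes tested, 3168 differed between kidney and liver at an adjusted p under 0.05 (limma, Benjamini-Hochberg over all genes), which is 11.8%. Kidney was higher for 1268 of them (4.71%) and lower for 1900 (7.05%). At an unadjusted p under 0.05 there were 6164 genes. The difference had the same sign in both preservations for 16656 of all genes tested (61.8%). A call rests on the mean of both differences, so the call itself favours a shared sign. The sign was the same for 1267 of the genes called higher in kidney (4.7% of the genes tested) and for all 1900 called lower. The exception was Vmn1r121, a vomeronasal receptor gene singled out after its values were seen, with 23 counts in kidney FFPE and 17 in kidney Frozen, against 20 in liver FFPE and 0 in liver Frozen. The fit has 3 residual degrees of freedom, and its p-values measure only the spread of these libraries.

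The share of the calls that were higher in kidney depended on the scaling. With the values as deposited 1268 calls were higher and 1900 lower. The share was 50.6% after quantile normalization (1776 higher and 1737 lower) and 48.0% when each library was given the same median and spread (1701 and 1840). It was 57.5% when counts were rescaled to plain library totals without mitochondrial genes (2052 and 1517). That setting, called without mitochondrial genes below, also drops the scaling factors of the deposited values. The part of each of these changes was not tested. The median difference of all genes was 0.04 as deposited and 0.22 without mitochondrial genes. Leaving out kidney FFPE gave 1767 calls, leaving out kidney Frozen 1223, and leaving out liver Frozen 1329. All 109 named genes that were called kept their sign under each alternative in which they were tested. They were chosen for large differences, and some alternatives change only the spread, so a kept sign was largely fixed in advance.

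**Figure D1:**
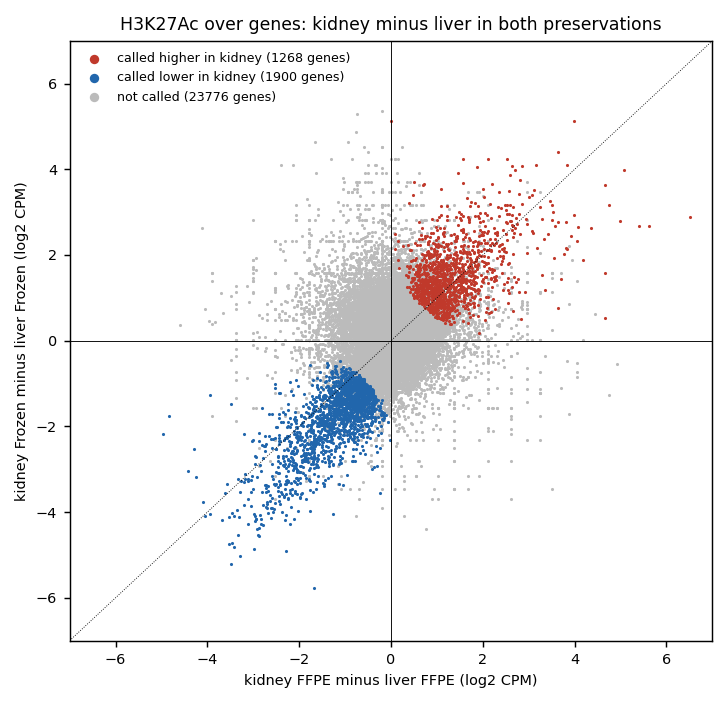
Kidney minus liver for each of the 26944 genes tested, in FFPE libraries (x axis, log2 CPM) and in Frozen libraries (y axis, log2 CPM), with 1 point a gene. Red points are the 1268 genes called higher in kidney, blue points the 1900 called lower and grey points the genes not called; the dotted line marks equal differences.

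Within a preservation there is 1 library an organ, so differences are given without a test. Among 22107 genes with at least 40 counts over the kidney and liver library of each preservation, kidney was at least 2-fold higher for 1262 (5.71%) in FFPE and 2315 (10.5%) in Frozen, and 679 (3.07%) passed in both. Kidney was at least 2-fold lower for 1374 (6.22%) in FFPE and 2478 (11.2%) in Frozen, and 948 (4.29%) passed in both. Opposite 2-fold differences were fewer. Kidney was higher in FFPE and lower in Frozen for 7 genes (0.0317%), and lower in FFPE and higher in Frozen for 44 (0.199%). With a minimum of 100 counts these numbers were 2 and 2. The plot of both preservations shows the called genes along the diagonal and the genes not called around the origin.

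Differences were wider in Frozen libraries. Of the genes called lower in kidney, 1634 of 1900 (86.0%) had the larger difference in Frozen, and their medians were -1.03 in FFPE and -1.60 in Frozen. Of the genes called higher, 779 of 1268 (61.4%) did, with medians of 1.19 in FFPE and 1.41 in Frozen. Of all genes tested, 16959 of 26944 had the larger difference in Frozen, and the genes called higher lay near that share. The part of the mitochondrial share or of the library depth in the wider Frozen differences was not tested. Across genes, which are not independent replicates and which share the same libraries, the FFPE and the Frozen difference had a Pearson correlation of 0.42 over 26944 genes and 0.714 over the 18023 genes with at least 100 counts in each pair.

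Both kidney values lay above both liver values for 6630 genes (24.6% of those tested) and below them for 5664 (21%). The 2 kidney values lay above all 6 other libraries, brain and heart included, for 1283 genes (4.76%), and the 2 liver values did so for 2586 (9.6%). Kidney lay below all 6 others for 786 genes (2.92%) and liver for 2410 (8.94%). Among the 1268 genes called higher in kidney, kidney lay above all 6 others for 551 (43.5%), and liver lay below all 6 for 635 (50.1%). Among the 1900 called lower, liver lay above all 6 others for 1484 (78.1%) and kidney below all 6 for 200 (10.5%). These shares describe the called genes and carry no test.

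The genes with the largest differences were homeobox genes on the kidney side and secreted or bile acid genes on the liver side. By the fixed rule, the 12 largest on the kidney side included Mir196b, Hoxa9, Hoxa7, Pfn3, Hoxb9, Defb29, Hoxc10, Hoxaas3, Kap, Hoxa10 and Hoxd9. Of these, Hoxaas3 is an antisense transcript within the Hoxa cluster. Pfn3 (chr13:55414688-55415232) lies next to Slc34a1, which ends at 55414695, and shares only a few bases with it. ChIP reads carry no strand of transcription, so reads in a stretch that genes share cannot be told apart.

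The 12 largest on the liver side were Cyp8b1, Ahsg, Crp, Apon, Mup3, Urah, Rbp4, Tat, Orm1, Apoa5, Apoc4 and Ugt2b36. Their kidney values lay between 1.56 and 4.24 log2 CPM, and their liver values between 5.52 and 8.56. The groups overlapped for none of the 24 genes, which choosing the largest differences favours. Over all genes tested, both kidney values lay above both liver values for 24.6% and below them for 21%. Counts behind the low side were small: from 15 to 99 in the kidney libraries for these 12, and from 0 to 140 in the liver libraries for the 12 on the kidney side.

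**Figure D2:**
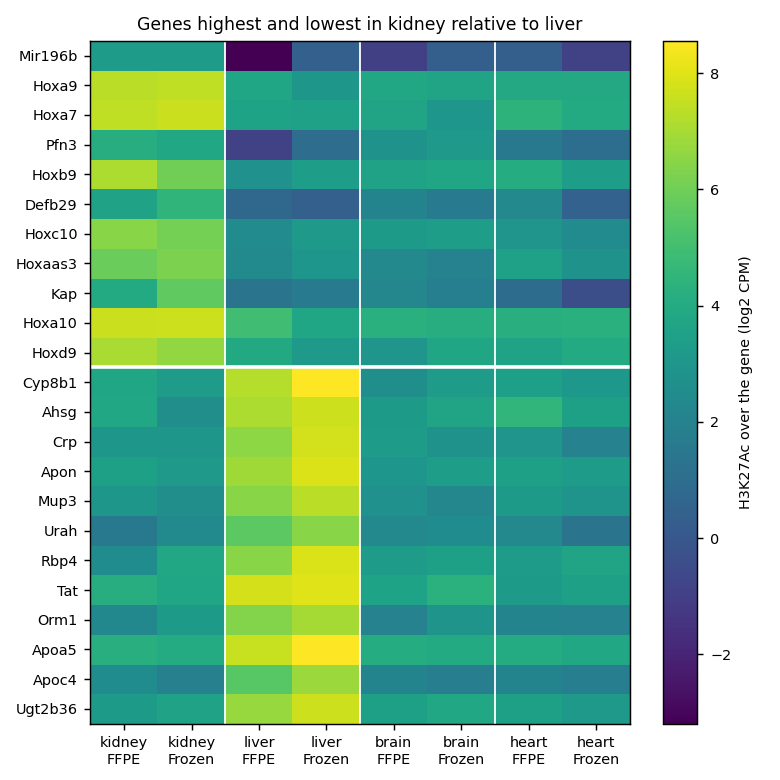
H3K27Ac (log2 CPM, color scale) of 11 of the 12 genes highest in kidney relative to liver (upper rows) and the 12 lowest (lower rows) in all 8 libraries, with kidney and liver on the left. The upper rows are brighter in the kidney columns than in the liver columns and the lower rows the reverse. Brain and heart, whose spread entered the calls behind the rule, mostly show the low level of the other organ.

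The 4 promoters below are shown to give the sequence context of genes at both ends of the comparison, 2 of the liver side and 2 of the kidney side. Each is the stretch up to 250 bases before the annotated gene, from RefSeq (GRCm38.p6), 5′ to 3′ on the strand of the gene. Capitals mark matches, searched on both strands, to 2 short motifs, GTTAAT and CAAAGTCC, of which the second is a site of HNF4, a factor that acts in both organs. The motifs do not overlap each other in these windows, and a match is a description and not a binding site.
Alb (chr5:90460620-90460869, + strand): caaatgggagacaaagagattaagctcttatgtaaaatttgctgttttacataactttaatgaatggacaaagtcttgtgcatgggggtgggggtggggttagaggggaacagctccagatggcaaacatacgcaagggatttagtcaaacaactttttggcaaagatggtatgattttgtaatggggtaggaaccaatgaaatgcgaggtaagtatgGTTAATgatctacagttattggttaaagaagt
Cyp8b1 (chr9:121916306-121916555, - strand): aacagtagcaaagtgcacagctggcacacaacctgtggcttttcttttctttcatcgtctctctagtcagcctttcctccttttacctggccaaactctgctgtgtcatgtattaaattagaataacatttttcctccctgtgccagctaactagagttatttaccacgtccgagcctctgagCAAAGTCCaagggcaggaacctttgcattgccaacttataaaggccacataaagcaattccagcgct
Slc34a1 (chr13:55399398-55399621, + strand): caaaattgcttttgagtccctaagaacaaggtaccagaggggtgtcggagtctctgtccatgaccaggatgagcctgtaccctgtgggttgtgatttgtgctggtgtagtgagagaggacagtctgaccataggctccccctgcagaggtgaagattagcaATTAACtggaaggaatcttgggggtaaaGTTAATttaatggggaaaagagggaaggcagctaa
Miox (chr15:89334223-89334472, + strand): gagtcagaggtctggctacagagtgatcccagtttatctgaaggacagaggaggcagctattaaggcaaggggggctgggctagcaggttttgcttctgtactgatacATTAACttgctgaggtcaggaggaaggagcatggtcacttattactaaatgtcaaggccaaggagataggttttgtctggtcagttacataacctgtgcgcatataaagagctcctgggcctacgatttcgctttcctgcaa

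GTTAAT began 32 bases before the RefSeq start of Alb and 142 bases before that of Miox. The 224 bases shown for Slc34a1 held 2 matches, so GTTAAT occurs in genes of both directions. The HNF4 motif began 67 bases before the start of Cyp8b1. Of the genes tested, 18438 had a RefSeq window of 300 bases around the start, and 6.29% of those windows held GTTAAT and 1.48% the HNF4 motif. Among the proximal tubule genes described below, 6 of the 23 with a window held GTTAAT (26.1%), among the drug-metabolizing enzymes 7 of 33 (21.2%) and among the glucose genes 5 of 18 (27.8%). Liver transcription factors, with 2 of 21 (9.52%), and fatty acid genes, with 2 of 20 (10%), lay nearer to the share of all windows. The windows had a median GC content of 50% for proximal tubule genes, 46.3% for drug-metabolizing enzymes and 54.8% for glucose genes. It was 62.3% for liver transcription factors, 58% for fatty acid genes and 56% for all windows. The part of base content in the shares with GTTAAT was not tested. These 5 lists were those of at least 20 genes with windows for at least 80% of members. For the genes called higher (69.7% with a window) and lower (73.5%) too few windows were at hand, and the same check over them is void.

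Genes of the nephron were mostly higher in kidney, from the proximal tubule to the collecting duct. The proximal tubule reclaims phosphate, glucose, amino acids and organic anions from the filtrate. Of its 27 listed genes, 17 were called higher and 1 lower, with a median difference of 1.18, against 4.71% higher, 7.05% lower and a median of 0.04 over all genes. Slc34a1 (chr13:55399622-55414695), the sodium-phosphate cotransporter of the brush border, had 6.62 log2 CPM in kidney FFPE and 7.32 in kidney Frozen, against 4.22 in both liver libraries. Its difference was 2.75 ± 0.28 (SE, adjusted p = 1.08e-08, limma), and the organs did not overlap. Miox, myo-inositol oxygenase, had 5.01 log2 CPM in kidney FFPE and 6.34 in kidney Frozen, against 2.42 in liver FFPE and 2.48 in liver Frozen, a difference of 3.22 ± 0.41.

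Slc6a19, the neutral amino acid transporter, differed by 2.79 ± 0.31, and Slc22a12, the urate transporter, by 2.52 ± 0.29. Acsm2 differed by 2.06 ± 0.28. The glucose transporter Slc5a2 differed less, by 1.47 ± 0.36, and Cyp27b1, which makes the active form of vitamin D, by 1.12 ± 0.32 (adjusted p = 0.0179, limma). The endocytic receptors of the same segment were not called: Lrp2 differed by 0.50 ± 0.26 (adjusted p = 0.263) and Cubn by 0.72 ± 0.26 (adjusted p = 0.0623). Slc17a3, Slc22a8 and Slc4a4 differed by 0.07 to 0.24 and were not called. The 1 listed gene called lower in kidney was Cyp2e1, an ethanol-oxidizing cytochrome P450 that hepatocytes also make, with 4.05 log2 CPM in kidney FFPE and 5.14 in kidney Frozen, against 6.13 in liver FFPE and 6.07 in liver Frozen. Slc3a1 (-0.79 ± 0.34) and Slc13a3 (-0.58 ± 0.28) were also below liver in both preservations, without being called. Leaving out kidney Frozen left 6 members called higher.

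In the thick limb, distal tubule and collecting duct, where salt, calcium, acid and water balance are set, 14 of 29 genes were called higher and none lower (also none at an unadjusted p under 0.05). Their median difference was 0.80, and of all genes tested 4.71% were called higher. Umod, uromodulin of the thick limb, had 6.43 log2 CPM in kidney FFPE and 5.93 in kidney Frozen, against 3.93 in liver FFPE and 3.16 in liver Frozen. It differed by 2.64 ± 0.33 (adjusted p = 3.54e-07, limma). The next largest were the collecting duct water channel Aqp2, which differed by 2.28 ± 0.36, the claudin Cldn10 of the thick limb by 2.23 ± 0.41, the vasopressin receptor Avpr2 by 2.17 ± 0.49 and the water channel Aqp3 by 1.93 ± 0.39.

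Slc12a1, the target of loop diuretics, differed by 1.73 ± 0.28 (adjusted p = 2.80e-05, limma). Slc12a3, the target of thiazides, was not called, with 6.85 log2 CPM in kidney FFPE and 6.08 in kidney Frozen, against 5.87 in liver FFPE and 6.29 in liver Frozen. The organs overlapped for Slc12a3, whose difference was 0.98 in FFPE and -0.21 in Frozen. Egf, Calb1, Trpv5 and Pvalb of the distal tubule lay above liver in both preservations without passing the threshold, with differences of 0.49 to 0.68. The count of 14 fell to 7 without kidney FFPE, 6 without kidney Frozen and 7 without liver Frozen.

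Podocyte genes, which build the filtration slit of the glomerulus, did not stand out in kidney. Of all genes tested, 4.71% were called higher and 7.05% lower. None of 12 podocyte genes was called higher (3 at an unadjusted p under 0.05, limma), and 2 were called lower. After quantile normalization 1 was called higher and 1 lower, and without mitochondrial genes 2 and 2. Of these, Synpo, an actin-binding protein, differed by -0.88 ± 0.28 (adjusted p = 0.0359), and without kidney Frozen or without liver Frozen only 1 of the 2 was called. Nphs1, nephrin, had 5.03 and 4.90 log2 CPM in kidney FFPE and Frozen, against 5.59 and 5.38 in liver FFPE and Frozen, and was not called. Wt1, a transcription factor of podocytes, differed by 0.77 ± 0.30, also without passing.

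Transcription factors of the nephron were higher in kidney almost throughout. Of 27, 22 were called higher, against 4.71% of all genes, and none lower (none at an unadjusted p under 0.05, limma). The median difference of the list was 1.47. Pax8, which is needed for the nephric lineage, had 6.69 log2 CPM in kidney FFPE and 6.63 in kidney Frozen, against 4.59 in liver FFPE and 4.12 in liver Frozen. Its difference was 2.30 ± 0.32 (adjusted p = 2.73e-06, limma). Emx2, a homeobox gene needed for the urogenital system, had 6.92 and 6.78 log2 CPM in kidney FFPE and Frozen, against 3.63 and 3.95 in liver FFPE and Frozen. These libraries did not overlap for either gene.

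Tfap2b, a factor of the distal nephron, differed by 2.38 ± 0.27, Tfcp2l1 of the collecting duct by 2.34 ± 0.27, and Pou3f3 of the thick limb by 2.07 ± 0.30. The nephron patterning genes Irx1, Irx2 and Irx3 differed by 1.83 to 2.33. The nephron progenitor gene Six2 was not called, with a difference of 0.35 ± 0.45. Gata3 and Osr1 had larger differences, of 0.81 and 1.06, and were not called either. Without kidney FFPE the count was 14.

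Hox genes are laid out in 4 clusters in the order of their expression along the body axis, and adult kidney keeps the expression of many of them. Kidney was called higher for 28 of 39 Hox genes, with a median difference of 1.92, and lower for none (none at an unadjusted p under 0.05 either, limma). Kidney lay above all 6 other libraries, brain and heart included, for 32 of the 39. Over all genes tested, 4.71% were called higher and kidney lay above all 6 others for 4.76%. Hoxa9 (chr6:52223097-52227370) had 848 counts in kidney FFPE and 986 in kidney Frozen, against 59 in liver FFPE and 46 in liver Frozen, a difference of 4.02 ± 0.30 (adjusted p = 6.26e-11, limma). Hoxa7 differed by 3.96 ± 0.30, Hoxb9 by 3.50 ± 0.36, Hoxc10 by 3.46 ± 0.37 and Hoxd9 by 3.31 ± 0.35.

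Within each cluster the largest difference was that of a gene of paralogue group 9 or 10, Hoxa9, Hoxb9, Hoxc10 and Hoxd9. In the Hoxa cluster it was -0.28 for Hoxa2 and 0.09 for Hoxa3, neither of them called, then 1.35 for Hoxa4 and 1.46 for Hoxa5, 2.67 for Hoxa6, and from 3.34 to 4.02 for Hoxa7, Hoxa9 and Hoxa10. It was 1.93 for Hoxa11 and 0.02 for Hoxa13. No member of groups 12 and 13 was called in any cluster. Members of group 3 were unlike each other: Hoxa3 differed by 0.09 ± 0.30, while Hoxb3 and Hoxd3 differed by 2.27 ± 0.26 and 2.54 ± 0.32. The order of groups was not tested, and neighbours in a cluster can share reads of 1 broad region.

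**Figure D3:**
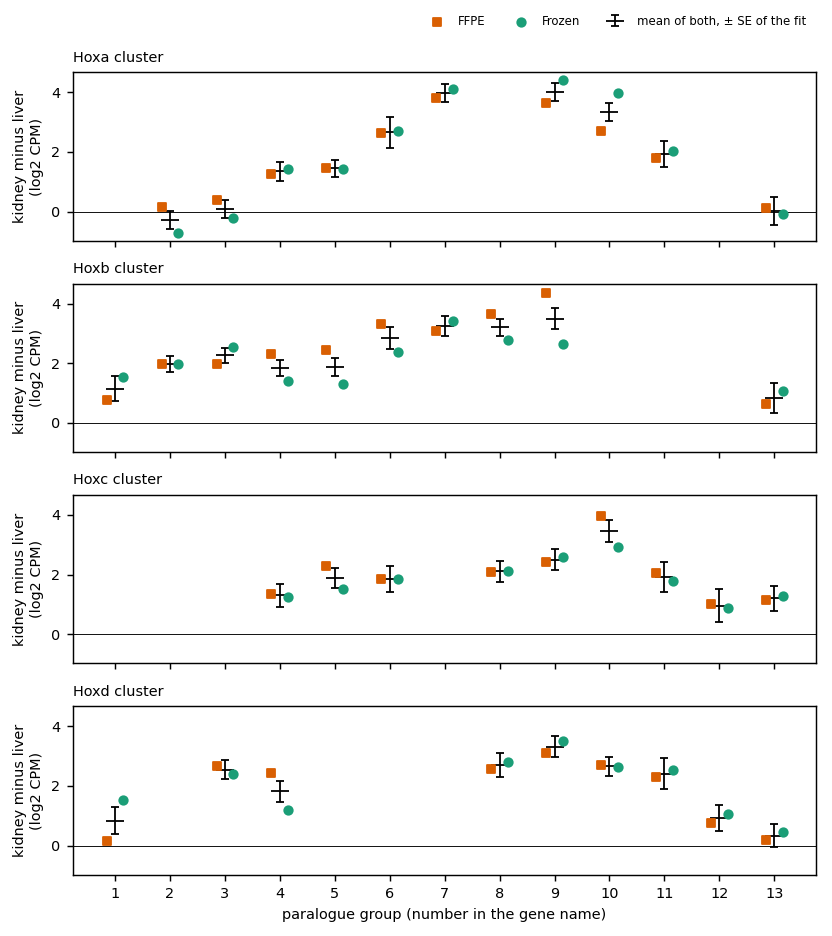
Kidney minus liver (y axis, log2 CPM) for 38 of the 39 Hox genes by paralogue group (x axis) in the 4 clusters. Squares are FFPE, circles Frozen, and dashes the mean of both with the SE of the fit; most values are above 0, and the highest means are in groups 7 to 10.

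In the Hox clusters 4 miRNA genes were called higher in kidney with their neighbours, out of 14 miRNA genes called higher and 10 called lower among 573 tested. Their mature forms are shown because 2 of them, from different clusters, share 1 seed, and because a second pair with a shared seed was called in the other direction. Sequences are from RefSeq (GRCm38.p6), and capitals mark the seed, bases 2 to 8.
miR-196b-5p (chr6:52230129-52230150, - strand): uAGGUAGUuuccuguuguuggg
miR-196a-5p (chr15:102973365-102973386, + strand): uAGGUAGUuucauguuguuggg
miR-148a-3p (chr6:51269829-51269850, - strand): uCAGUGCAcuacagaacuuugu
miR-148b-3p (chr15:103285185-103285206, + strand): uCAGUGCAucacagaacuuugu

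The miR-196 family targets Hox transcripts. Mir196b lies between Hoxa9 and Hoxa10 and had 52 counts in kidney FFPE and 55 in kidney Frozen, against 0 in liver FFPE and 7 in liver Frozen (adjusted p = 3.12e-04, limma). Mir196a-2, next to Hoxc10, had 24 and 9 counts in kidney FFPE and Frozen, against 0 and 1 in liver FFPE and Frozen (adjusted p = 0.0109). Mir10a in the Hoxb cluster had 39 and 30 counts in kidney FFPE and Frozen, against 3 and 10 in liver FFPE and Frozen, and Mir615 in the Hoxc cluster had 27 and 21, against 2 and 2. These are counts over a short hairpin inside acetylated clusters, and give no level of the mature miRNA. They were picked after their values were seen, other than Mir196b.

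On the liver side, Mir148a had 10 counts in kidney FFPE and 8 in kidney Frozen, against 58 in liver FFPE and 89 in liver Frozen, a difference of -3.04 ± 0.64 (adjusted p = 9.20e-04, limma). Mir148b, on another chromosome, had 7 and 13 counts in kidney FFPE and Frozen, against 21 and 72 in liver FFPE and Frozen, a difference of -2.07 ± 0.65. Mir122, the miRNA gene for which hepatocytes are best known, had 1 and 8 counts in kidney FFPE and Frozen, against 40 and 38 in liver FFPE and Frozen (adjusted p = 9.35e-03).

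Factors of the hepatocyte were lower in kidney for 19 of 26 genes and higher for none (none at an unadjusted p under 0.05, limma), with a median difference of -1.31. Over all genes tested, 7.05% were called lower and 4.71% higher. These shares stand beside each list from here to the fatty acid genes. Nr1i3, the drug-sensing receptor CAR, had 3.50 log2 CPM in kidney FFPE and 3.04 in kidney Frozen, against 6.43 in liver FFPE and 7.44 in liver Frozen. It differed by -3.66 ± 0.36 (adjusted p = 6.81e-09, limma). The pioneer factors Foxa1 and Foxa2 differed by -3.24 ± 0.34 and -3.12 ± 0.33, and Creb3l3, a factor of lipid and acute phase genes, by -2.90 ± 0.29.

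Other factors of the list are given for comparison. Hnf4a, which acts in hepatocytes and the proximal tubule, had 6.21 log2 CPM in kidney FFPE and 6.43 in kidney Frozen, against 7.53 in liver FFPE and 7.74 in liver Frozen, a difference of -1.31 ± 0.26 (adjusted p = 4.12e-04, limma). Cebpb, Rora and Nfil3 differed by -0.63 to -0.75 and were not called. Whether Hnf4a and Foxa1 differ from each other in this was not tested.

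Plasma protein genes were lower in kidney for 47 of 51, with a median difference of -2.55, and higher for none (none at an unadjusted p under 0.05, limma). Alb (serum albumin) had 4.50 log2 CPM in kidney FFPE and 4.09 in kidney Frozen, against 7.55 in liver FFPE and 7.63 in liver Frozen, a difference of -3.29 ± 0.33 (adjusted p = 6.87e-09, limma). Ahsg, fetuin-A, had 3.82 and 2.61 log2 CPM in kidney FFPE and Frozen, against 7.10 and 7.64 in liver FFPE and Frozen. Crp, an acute phase protein, differed by -4.14 ± 0.39, and Rbp4, the retinol carrier, by -4.00 ± 0.34.

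The members not called were the acute phase genes Saa1 (-1.28 ± 0.48) and Saa2 (-0.46 ± 0.52), Orm2 (-1.14 ± 0.40) and Hamp2 (-2.43 ± 0.97). Saa1, Saa2 and Orm2 are near copies of other family members, as are the Serpina1 and Mup genes, so reads may be split among them. Hamp2 had 12 counts in kidney FFPE and 0 in kidney Frozen, against 18 in liver FFPE and 8 in liver Frozen. Hamp, the iron hormone hepcidin, was called at -2.30 ± 0.49.

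Complement and coagulation genes were lower for 34 of 37 and higher for none (none at an unadjusted p under 0.05, limma), with a median of -1.85. C8a, of the membrane attack complex, had 4.63 and 4.51 log2 CPM in kidney FFPE and Frozen, against 7.32 and 8.53 in liver FFPE and Frozen, a difference of -3.35 ± 0.32. Factor X (F10) differed by -3.31 ± 0.31, the fibrinogen chain Fgb by -3.19 ± 0.41 and factor XI (F11) by -3.17 ± 0.32. Those not called were Proc, Kng2 and C6. C6 lay lower in kidney in FFPE (-0.93) and higher in Frozen (0.25).

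Bile acid and cholesterol genes were lower for 19 of 20 and higher for none (none at an unadjusted p under 0.05, limma). The largest difference of all genes on the liver side was that of Cyp8b1 (chr9:121914356-121916305), the sterol 12-hydroxylase that sets how much cholic acid is made. It had 72 counts in kidney FFPE and 56 in kidney Frozen, against 701 in liver FFPE and 2112 in liver Frozen. Its difference was -4.35 ± 0.35 (adjusted p = 1.45e-10, limma). The bile acid uptake transporter Slc10a1 differed by -2.74 ± 0.31, and Baat and Slc27a5, which conjugate bile acids, by -2.77 ± 0.32 and -3.26 ± 0.32.

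Cyp7a1, the rate-limiting enzyme of bile acid synthesis, had the larger difference in FFPE, at -3.48, against -1.48 in Frozen. It had 3.42 log2 CPM in kidney FFPE and 4.57 in kidney Frozen, against 6.90 in liver FFPE and 6.05 in liver Frozen. The export pump Abcb11 differed by -1.09 ± 0.27. Amacr, of peroxisomes, was the member not called (-0.56 ± 0.26).

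Genes of the urea cycle and amino acid breakdown were lower for 26 of 29 and higher for none (none at an unadjusted p under 0.05, limma). Tat, tyrosine aminotransferase, had 4.12 log2 CPM in kidney FFPE and 3.78 in kidney Frozen, against 7.81 in liver FFPE and 7.97 in liver Frozen, a difference of -3.94 ± 0.30 (adjusted p = 6.26e-11, limma). Nags, which makes the activator of the urea cycle, differed by -3.25 ± 0.34, the entry enzyme Cps1 by -2.52 ± 0.26 and the final enzyme Arg1 by -3.05 ± 0.33. The middle steps Ass1 and Asl, which kidney also uses to make arginine, differed by -1.25 ± 0.30 and -1.23 ± 0.28. Glul and Prodh were not called, at -0.26 ± 0.26 and -0.16 ± 0.25. The count of 26 was 14 without kidney Frozen and 15 without liver Frozen.

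Glucose genes were more mixed. Of 22 genes of gluconeogenesis, fructose and glycogen handling, 14 were called lower in kidney and none higher (none at an unadjusted p under 0.05, limma). The glycogen-targeting subunits Ppp1r3c, Ppp1r3b and Ppp1r3g differed by -2.21 to -3.38, and the liver glycogen synthase Gys2 by -2.16 ± 0.33. Of the steps of gluconeogenesis, Pck1, the committing enzyme in both organs, had 7.43 log2 CPM in kidney FFPE and 8.03 in kidney Frozen, against 8.05 in liver FFPE and 8.82 in liver Frozen, and was not called (-0.70 ± 0.27, adjusted p = 0.0959, limma).

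Fbp1 was not called either, at -1.02 ± 0.35 (adjusted p = 0.0535), nor was the fructose kinase Khk (-0.40 ± 0.28). G6pc, glucose-6-phosphatase, was called at -1.04 ± 0.27. The fructose transporter Slc2a5 and the mitochondrial Pck2 differed by 0.48 ± 0.28 and 0.44 ± 0.27. The count of 14 was 9 without kidney FFPE, 7 without kidney Frozen and 6 without liver Frozen.

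Drug-metabolizing enzymes were lower in kidney for 33 of 40, with a median of -2.03. Cyp2d10 differed by -3.55 ± 0.37, the carboxylesterase Ces3a by -3.45 ± 0.34, Ugt2b1 by -3.15 ± 0.33 and Ugt1a1, the bilirubin conjugating enzyme, by -3.12 ± 0.38. These families lie in clusters of similar copies, so the split of reads between members is uncertain. Cyp4b1 went the other way, with 5.41 log2 CPM in kidney FFPE and 5.16 in kidney Frozen, against 4.14 in liver FFPE and 4.08 in liver Frozen. Its difference was 1.18 ± 0.33 (adjusted p = 0.012, limma), and the call was lost when any of the 4 libraries was left out.

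Fatty acid oxidation separated the organs least of the metabolic lists: 8 of 25 genes were called lower and none higher (none at an unadjusted p under 0.05, limma), with a median of -0.49. The called genes were led by Fabp1, the liver fatty acid binding protein (-3.55 ± 0.50). Fabp1 had 2.16 and 1.63 log2 CPM in kidney FFPE and Frozen, against 4.94 and 5.94 in liver FFPE and Frozen. Core enzymes of the pathway that both organs need, Cpt1a, Hadha and Acadl, differed by -0.20 to 0.40 and were not called. The count of 8 was 3 without kidney FFPE, 2 without kidney Frozen, 3 without liver Frozen and 5 without mitochondrial genes, and after quantile normalization 1 member was called higher.

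**Figure D4:**
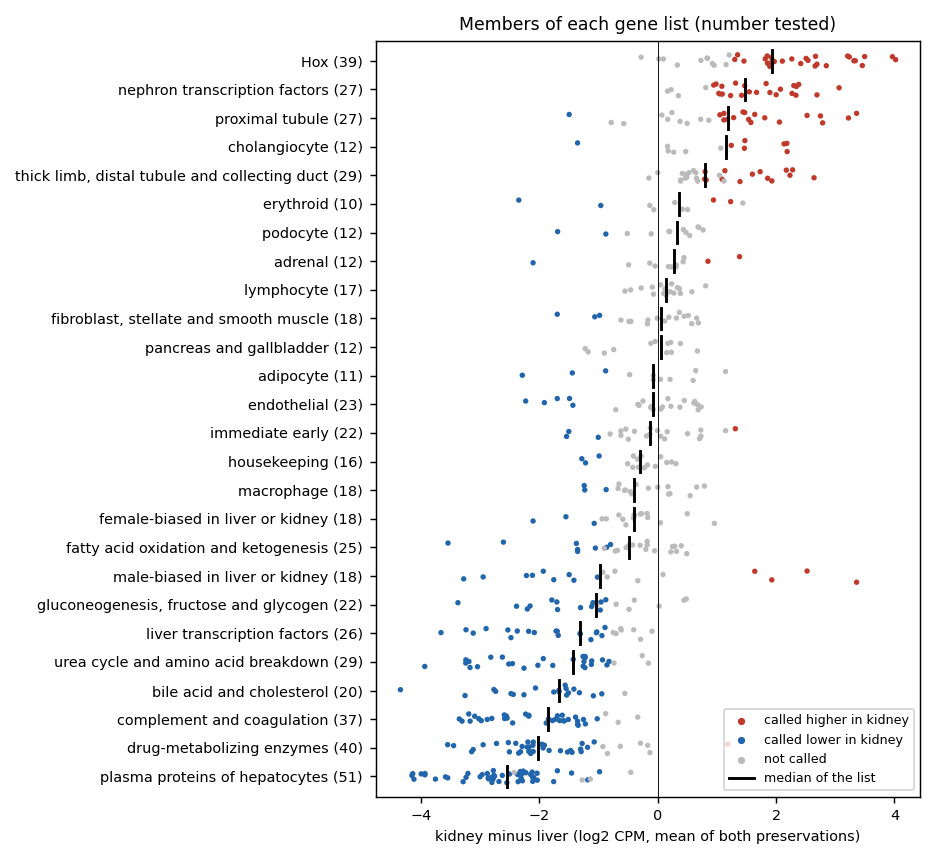
Kidney minus liver (x axis, log2 CPM) for each member of 26 gene lists, ordered by their medians, with 1 point a gene. Red points were called higher in kidney, blue points lower and grey points not called; the Hox, nephron factor and proximal tubule lists lie mostly to the right of 0 and the plasma protein, drug and complement lists to the left.

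Markers of other cells of these organs were looked at next. For this and the following lists, the shares over all genes tested are 4.71% higher and 7.05% lower. Counts near these shares are not read as a trait of a list. Bile duct markers, several of which tubule epithelium also makes, were higher in kidney for 6 of 12: Tspan8 (2.19 ± 0.41), Krt7 (2.18 ± 0.37), Cldn4 (2.13 ± 0.36), Epcam, Spp1 and Muc1. Sox9 was lower, with 5.31 and 4.95 log2 CPM in kidney FFPE and Frozen, against 5.76 and 7.21 in liver FFPE and Frozen. Its adjusted p was 0.00178 (limma), and it was not called without kidney Frozen or without liver Frozen.

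Of 23 endothelial genes, 5 were called lower in kidney and none higher (5 at an unadjusted p under 0.05, limma). That none was higher held for the deposited scaling: 4 were called higher after quantile normalization, 4 with the same median and spread and 4 without mitochondrial genes. The 5 lower ones were Clec4g (-2.23 ± 0.35), Lyve1 (-1.92 ± 0.27), Gata4 (-1.70 ± 0.27), Gpr182 (-1.49 ± 0.29) and Stab2 (-1.44 ± 0.25), which as background are genes of liver sinusoidal endothelium. Pan-endothelial genes were not called: Pecam1 differed by 0.08 ± 0.28, Cdh5 by -0.11 ± 0.30 and Kdr by 0.05 ± 0.26. Of 18 macrophage genes, Cx3cr1, Clec4f, the Kupffer cell lectin, and Nr1h3 were lower (-1.24, -1.23 and -0.87) and none higher (2 at an unadjusted p under 0.05, limma). These 3 were not called without kidney FFPE, and 1 of them was without liver Frozen. None of 17 lymphocyte genes was called (none at an unadjusted p under 0.05), nor any of 12 pancreas and gallbladder genes (2 lower at an unadjusted p under 0.05, and 1 called lower after quantile normalization).

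In the fibroblast, stellate and smooth muscle list, 3 of 18 were lower (16.7%, against 7.05% of all genes): Gata4, Myh11 (-1.06 ± 0.25) and Tagln (-0.98 ± 0.32). Only 1 of them was called without kidney Frozen or without liver Frozen. Among 11 adipocyte genes, 3 genes of lipid droplets and fat storage, Cidec (-2.29 ± 0.36), Plin4 (-1.44 ± 0.25) and Pparg (-0.88 ± 0.28), were lower, while the fat cell hormone Adipoq (-0.48 ± 0.42) was not called. Hepatocytes also use Cidec and Plin4. Of 10 erythroid genes, Alas2 (-2.35 ± 0.42) and Klf1 (-0.96 ± 0.28) were lower and Epor (1.23 ± 0.31) and Epb42 (0.94 ± 0.32) higher. Neither of the higher ones was called without kidney FFPE, and 1 of each direction was without kidney Frozen or without liver Frozen, as was 1 of the lower ones without kidney FFPE.

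The adrenal gland sits on the kidney. Of 12 adrenal genes, Pnmt (1.38 ± 0.43) and Star (0.85 ± 0.28) were called higher in kidney, with adjusted p of 0.0279 and 0.0469 (limma), and Cyp17a1, which mouse liver also expresses, lower (-2.11 ± 0.30). The gland's defining genes Cyp11b1, Cyp21a1 and Nr5a1 differed by -0.05 to 0.43 and were not called. The median of the whole list was 3.68 log2 CPM in both kidney libraries, against 3.52 in liver FFPE and 3.20 in liver Frozen, and its part in other differences was not tested. Neither Star nor Pnmt was called without kidney FFPE, without kidney Frozen or without liver FFPE, and only Pnmt was without liver Frozen. After quantile normalization 1 adrenal gene was called higher.

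Genes with a known sex bias in mice fell on both sides. Of 18 male-biased genes, 4 were called higher in kidney and 9 lower (22.2% and 50%, against 4.71% and 7.05% of all genes). The 4 are kidney genes: Kap, the androgen-regulated protein of the proximal tubule (3.36 ± 0.59), Slc22a12, Cyp2j13 (1.93 ± 0.31) and Slc7a13 (1.64 ± 0.35); 2 were called without kidney Frozen. Those lower were led by the liver genes Mup7 (-3.28 ± 0.39), Cyp2d9 (-2.95 ± 0.31) and Hsd3b5 (-2.22 ± 0.41). Of 18 female-biased genes, 3 were lower and none higher (1 at an unadjusted p under 0.05, limma), and 5 were lower after quantile normalization. The share lower was 16.7% as deposited, against 7.05% of all genes. The Y-linked genes Ddx3y, Uty, Eif2s3y and Kdm5d had 81 to 331 counts in each of the 4 libraries, Xist had 231 to 246, and none was called (2 lower at an unadjusted p under 0.05).

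Kap had 82 counts in kidney FFPE and 295 in kidney Frozen, against 11 in liver FFPE and 17 in liver Frozen. Its level was far from even between the kidney libraries, 3.97 log2 CPM in FFPE and 5.71 in Frozen, while the liver libraries had 1.33 and 1.63. Miox, Slc22a6 and Gatm were likewise higher in kidney Frozen than in kidney FFPE, and of the 27 proximal tubule genes 23 had the larger difference in Frozen. Of the 29 genes of the later nephron, 14 did, and of all genes tested 16959 of 26944. Other lists had high counts too, such as 33 of 37 for complement and coagulation and 22 of 26 for liver factors, and the lists were not tested against each other. Cells taken into the core and cells in the paraffin section cannot be told apart from preservation here.

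Housekeeping genes were not all level between the organs. Of 16, Eef1a1 (-1.28 ± 0.26), B2m (-1.22 ± 0.29) and Gusb (-0.99 ± 0.26) were lower in kidney and none higher (none at an unadjusted p under 0.05, limma), with a median of -0.31. The share lower was 18.8%, against 7.05% of all genes. None of the 3 was called without kidney Frozen, and 1 was without liver Frozen. Actb had 6.72 and 6.49 log2 CPM in kidney FFPE and Frozen, against 6.63 and 7.03 in liver FFPE and Frozen. Immediate early genes, which respond within minutes to stress and handling, had a median over 22 genes of 0.24 in FFPE and -0.61 in Frozen. The sign was the same in both preservations for 13 of the 22, against 61.8% of all genes tested. Atf3 (-1.54 ± 0.32), Egr1 (-1.50 ± 0.29) and Junb (-1.01 ± 0.30) were lower and Egr3 (1.31 ± 0.44) higher. The 3 lower ones were not called without kidney Frozen or without liver Frozen, and without liver FFPE 6 members were lower. Egr3 was not called without kidney Frozen or without liver FFPE. The number of members called higher, 1 as deposited, was 3 after quantile normalization, 2 with the same median and spread and 5 without mitochondrial genes. Junb had 7.28 and 7.15 log2 CPM in kidney FFPE and Frozen, against 7.72 and 8.73 in liver FFPE and Frozen, so that liver Frozen stood apart.

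Called genes also lay side by side. Runs of at least 4 neighbouring genes called in the same direction numbered 11 on the kidney side, with 65 genes, and 33 on the liver side, with 165 genes. The 4 Hox clusters made runs of 12, 9, 9 and 7 genes, miRNA and antisense genes included. Another kidney run was Casr, Cd86, Ildr1 and Slc15a2 on chromosome 16, with differences from 1.12 to 1.43, which holds the calcium-sensing receptor.

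The longest run on the liver side was 17 Mup genes, 1 pseudogene included, for the major urinary proteins that liver secretes, over chr4:60066469-61782355, with differences from -3.62 to -2.19. They are near copies, so each one's own share of the reads is uncertain. Other runs included 10 Serpina genes, also with 1 pseudogene, on chr12:103728156-104106138, 8 genes around the lipid droplet genes Plin4 and Plin5 on chr17:56079599-56218889, the run of Sik3, Apoa1, Apoc3, Apoa4, Apoa5 and Zpr1 on chr9:46012820-46282643, and that of Apoc2, Apoc4, Apoc1, Apoe and Tomm40 on chr7:19671579-19715442. Genes such as Zpr1 and Tomm40 have no known role specific to liver and lie within the apolipoprotein loci. Reads were assigned to genes, so a region of acetylation that spans neighbours counts toward each gene it covers.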

How the data were processed

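Members and gene lists were chosen with earlier results of these data known. The build mm10 and the tools Bowtie2, featureCounts and limma are named per the submitters' processing notes, without versions or the part of each gene that was counted. The authors deposited log2 values, 1 column for each organ and preservation. All of them return whole counts within 0.001 as log2 of the count plus 0.5 over a scaled library size, which gave the counts printed. Columns carry no replicate number, and no source says whether a column is 1 replicate or merged; the labels' ChIP runs and 2 library kits could not be matched to columns.

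Of 27179 genes, 235 at 0 in all libraries were removed. Differences were tested (both sides) by limma 3.58.1, run in R 4.3.3, on the deposited log2 values of all 8 columns, with terms for organ and preservation, a prior variance that follows the mean and Benjamini-Hochberg adjusted p under 0.05. The fit was tested on simulated data. Positions come from RefSeq GRCm38.p6 (25275 genes matched). Of 610 list members, 609 matched. Named genes are the 12 largest called in each direction with at least 50 counts in each library of the higher organ, up to 4 called per list and direction with members called against their list, and 7 genes set by name, with all Y-linked, Xist and mitochondrial genes; other names are examples of list members. No set test was made. Some genes are not reported here, while counts over lists include them.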

Additional observations from a re-analysis of the deposited data

Results flagged for a closer look

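Kidney minus liver had opposite signs in the preservations for all 13 protein genes of the mitochondrial genome. Their median was 0.60 in FFPE and -0.62 in Frozen. With 1 library a group, the difference between preservations was not tested. ND1 had 0.78 in FFPE and -0.63 in Frozen, ND2 0.60 and -0.62, ND3 0.62 and -0.73, ND4 0.56 and -0.68, ND4L 0.54 and -0.68, ND5 0.56 and -0.53, and ND6 0.63 and -0.61. COX1 had 0.60 in FFPE and -0.43 in Frozen, COX2 0.59 and -0.58, COX3 0.53 and -0.49, ATP6 0.61 and -0.63, ATP8 0.62 and -0.69, and CYTB 0.55 and -0.51. None of the 13 was called in the mean of both preservations (none at an unadjusted p under 0.05, limma).

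For 3 other lists the median also had opposite signs, with a size of at least 0.1 in each preservation, again without a test. It was 0.24 in FFPE and -0.61 in Frozen for immediate early genes, -0.15 in FFPE and 0.24 in Frozen for fibroblast, stellate and smooth muscle genes, and -0.30 in FFPE and 0.15 in Frozen for adipocyte genes. The sign was the same in both preservations for 13 of 22 immediate early genes, 15 of 18 of the fibroblast list and 7 of 11 adipocyte genes. Over all genes tested it was the same for 61.8%, and these counts are not read as a trait of a list.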

How the results depend on the processing

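No paired analysis was possible because the columns carry no replicate number. The 3168 calls became 1907 without a term for preservation and 947 with a prior variance that does not follow the mean. The prior of the latter fit has 3.8 degrees of freedom, against 30.6 in the main fit. The sign was the same in both preservations for all of these 1907 and 947 calls, which the call itself favours. Calls higher in kidney numbered 721 and 377 under these settings and 2052 without mitochondrial genes, and calls lower 1186 and 570. Leaving out each kidney or liver library in turn gave 1223 to 3624 calls, 447 to 1449 higher and 738 to 2175 lower. The genes at least 2-fold apart in both preservations numbered 96 higher and 234 lower at 4-fold. The other alternatives stayed within 1.5 times of these counts: the 4 libraries alone, both normalizations, the filters on low values, log2 of CPM plus 1, voom weights, and the fits without brain or heart. Of the 109 named genes called, 74 to 109 were called over the alternatives, and 78 of the 78 that a mean of at least 4 left to test. Depth limits short and weakly marked genes: 573 miRNA genes had a median of 4 counts in kidney FFPE. Intervals for 1 library a group would cover counting error only, and none is printed.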

Other observations

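Of the 51 genes with opposite 2-fold differences in the preservations, several are receptor genes of smell and pheromones with few counts. The genes named here were chosen after their values were seen, and none has a test. Pate3 had 19 counts in kidney FFPE and 68 in kidney Frozen, against 60 in liver FFPE and 18 in liver Frozen. Bpifa1 had 19 and 72 counts in kidney FFPE and Frozen, against 50 and 22 in liver FFPE and Frozen. With more reads behind it, Foxo4 had 134 counts in kidney FFPE and 110 in kidney Frozen, against 50 in liver FFPE and 223 in liver Frozen, and Slc38a11 had 139 and 69 counts in kidney FFPE and Frozen, against 56 and 146 in liver FFPE and Frozen.

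Chromosomes differed in the share of genes called. On chromosome 19, which holds a Cyp2c cluster, 11.5% of 780 genes were lower in kidney and 4.10% higher. On chromosome 15, with the Hoxc cluster, 8.13% of 898 genes were higher and 10.2% lower. On the X chromosome 2.33% of 1157 genes were higher and 1.73% lower, with a median of 34 counts a gene in kidney FFPE. These shares are descriptions, since neighbouring genes are not independent.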
